A study of Mus musculus with 3 samples.

Results

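In early mouse embryos, 8 genes of haem synthesis and erythroid maturation were read out in single cells: Klf1, Alas2, Urod, Fech, Tfrc, Slc25a37, Epor and Car2. All 8 were higher in erythroid cells than in the other cells of the same embryos, beside 25.9% of the 15540 genes tested, and by very unequal amounts. Klf1, Alas2 and Epor were close to absent in the other cells, whereas Urod, Fech and Tfrc were read in every lineage and differed by a few fold. The other cells lacked Gata1 RNA and high embryonic globin RNA by rule, so low levels there of genes that go with Gata1 are partly set by it. Within erythroid cells, Slc25a37 and Alas2 passed edgeR's test as higher in the cells with the most globin RNA, beside 0.252% of the 7944 genes tested. DESeq2 did not call Alas2 (adjusted p = 0.918). With the embryo as a block 5 of the 8 genes passed, beside 89 of all 7944 genes. The 8 genes were chosen by symbol among 31054 features, as genes of this pathway, with earlier results of these data known.

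Single-cell RNA was profiled in 3 wild-type male embryos of a C57BL/6 x 129 SvEv cross, collected at embryonic day 8 around the onset of somite formation, with 1 library per embryo (replicates 1, 2 and 3). Extraembryonic tissue was dissected away, yet 262, 1169 and 917 cells with extraembryonic endoderm markers remained in replicates 1, 2 and 3. The study was made to describe the left-right organizer, and these 3 embryos include no treatment, mutant or second time point. Bulk RNA of cells sorted from transgenic embryos of the same study was not used here. After quality control, 5795, 7956 and 7844 cells were kept, with 191843539, 144790573 and 165506028 unique molecular identifiers (UMIs, each a counted RNA molecule) and a median of 27635, 14615 and 16332.5 UMIs per cell. A cell was called erythroid when the embryonic globins Hbb-bh1 and Hba-x together reached 30 UMIs per 10000 and Gata1, a transcription factor gene of the red cell lineage, had at least 1 UMI.

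Haem is built in a chain of enzymes that begins and ends in the mitochondrion. ALAS2 is the erythroid form of the first and rate-limiting enzyme, UROD acts in the cytosol in the middle of the chain, and FECH inserts iron into the ring in the last step. Iron enters the cell through the transferrin receptor, encoded by Tfrc, and crosses the inner mitochondrial membrane through mitoferrin 1, encoded by Slc25a37. KLF1 is a transcription factor that drives erythroid genes, EPOR receives the erythropoietin signal, and carbonic anhydrase 2, encoded by Car2, interconverts carbon dioxide and bicarbonate in red cells. At this stage the red cells are primitive erythroid cells, which arise in yolk sac blood islands and carry embryonic globins.

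Erythroid cells numbered 0, 587 and 141 in replicates 1, 2 and 3, or 728 of the 15800 kept cells of replicates 2 and 3. Replicate 1 stood apart, since it had no cell that met the gate, and erythroid values therefore rest on 2 embryos. It also held the fewest extraembryonic-endoderm-like cells, and the part of incomplete dissection in the erythroid cell numbers was not tested. The gated cells carried erythroid genes that the gate did not use. All 6 of Blvrb, Cited4, Hba-a1, Hba-a2, Hbb-y and Smim1 had more than 3 UMIs in both embryos, as they also had in other cells. Their summed level was 1844 and 1393 counts per 1000000 UMIs (CPM) in erythroid cells against 55.4 and 46.1 in other cells. Hba-a1, Hba-a2 and Hbb-y are globins like the gate genes, so this sum is not fully apart from the gate. Markers of further cell types were also read in the gate. The 8 endothelial markers summed to 117 and 145 CPM against 2569 and 2181 in endothelium-like cells and 179 and 210 in other cells, and most of that sum was Egfl7 at 80.9 and 95.1, while Cdh5 was at 0.6 and 1.2. Of 7 megakaryocyte markers, Itga2b at 52.3 and 52.7 made up nearly the whole sum of 54.2 and 55.1, with Gp1bb and Ppbp at 0. This sum was above the 1.33 and 1.30 of other cells and the 23.6 and 17.7 of endothelium-like cells. The 7 macrophage and leukocyte markers summed to 5.71 and 11.1 against 0.68 and 0.76 in other cells. In erythroid cells 2 of the 7 had more than 3 UMIs in each embryo. There 3 and 4 of them were at 0, Ptprc and Csf1r among these. The part of either list in the results was not tested. In all, 39 of 587 and 8 of 141 erythroid cells also met the marker rule of another lineage, and taking them out ended no call on the 8 genes against other cells. Libraries shared 18 to 22 cell barcodes a pair, none of them erythroid in both.

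Klf1, Alas2 and Epor, the 3 genes with the largest differences below, are shown here with the 250 bases upstream of their RefSeq start (GRCm38.p6). Klf1 (ENSMUSG00000054191) lies at chr8:84901928-84905291 on the plus strand, Alas2 (ENSMUSG00000025270) at chrX:150547375-150570638 on the plus strand, and Epor (ENSMUSG00000006235) at chr9:21958897-21963506 on the minus strand. Capitals mark a GATA motif, searched as the word AGATAA, the word AGATAG, the word TGATAA and the word TGATAG, and a CACCC motif, each on both strands. Sequences run 5′ to 3′ along the gene, so that a motif on the opposite strand reads as its reverse complement, such as TTATCT or GGGTG. RefSeq and GENCODE place the starts at different bases, so the Klf1 and Alas2 windows reach past the GENCODE gene start and the Epor window ends before it.
Klf1, chr8:84901732-84901981, plus strand: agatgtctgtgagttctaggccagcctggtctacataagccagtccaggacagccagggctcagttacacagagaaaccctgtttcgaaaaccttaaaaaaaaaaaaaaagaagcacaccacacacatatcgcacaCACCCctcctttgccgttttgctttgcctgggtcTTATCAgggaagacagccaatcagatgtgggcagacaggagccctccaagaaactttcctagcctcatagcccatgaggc
Alas2, chrX:150547167-150547416, plus strand: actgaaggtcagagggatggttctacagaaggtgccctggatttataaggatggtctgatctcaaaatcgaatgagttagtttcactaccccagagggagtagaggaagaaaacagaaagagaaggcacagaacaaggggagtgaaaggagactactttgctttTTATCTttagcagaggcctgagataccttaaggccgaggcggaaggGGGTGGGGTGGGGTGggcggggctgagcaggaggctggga
Epor, chr9:21963577-21963826, minus strand: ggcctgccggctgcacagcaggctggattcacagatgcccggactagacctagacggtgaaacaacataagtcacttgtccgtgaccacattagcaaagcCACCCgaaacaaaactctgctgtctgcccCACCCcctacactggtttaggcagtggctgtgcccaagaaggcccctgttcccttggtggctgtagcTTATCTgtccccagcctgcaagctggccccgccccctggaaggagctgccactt

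Counted from the base before the start as -1, the Klf1 window held a GATA motif at -80 to -75 and a CACCC motif at -114 to -110. The Alas2 window held a GATA motif at -86 to -81 and 3 adjoining CACCC motifs between -40 and -26. In the Epor window the GATA motif lay at -54 to -49 and the 2 CACCC motifs at -150 to -146 and -121 to -117. Among all 32851 RefSeq promoters of the same length, 26.5% held a GATA motif, 52.0% a CACCC motif and 11.8% both. RefSeq windows were at hand for 5 of the 8 genes. Those of Tfrc held CACCC motifs and no GATA motif, and that of Urod held neither. A match describes the letters of the window and was not tied to any binding measured here.

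Klf1, the transcription factor of the set, showed the largest difference. Its level in erythroid cells was 151 CPM in replicate 2 (1451 UMIs, exact Poisson 95% interval 143 to 159) and 124 in replicate 3 (313 UMIs, 111 to 139), or 137 ± 18.8 (SD, n = 2). Other cells, which held under 30 globin UMIs per 10000 and no Gata1 UMI, were at 1.18 and 0.60. The groups did not overlap, and the ratio was 128 in replicate 2 and 206 in replicate 3. In edgeR's quasi-likelihood test on the sums of each embryo, the log2 fold change was 7.68 (SE 0.241, Benjamini-Hochberg adjusted p = 5.95e-10). It was smaller, at 5.38, when every cell outside the gate was counted as an other cell, which adds the cells with Gata1 but little globin. Intervals on counts here and below cover counting error only.

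Of the 3 haem enzymes, Alas2 was the one almost absent from other cells. It reached 56.8 CPM in replicate 2 (52.1 to 61.7) and 52.3 in replicate 3 (43.8 to 62.0), against 0.70 and 0.52 in other cells. Both erythroid sums lay far above both other sums, by 81.1-fold and 101-fold, with a log2 fold change of 6.87 (SE 0.171, edgeR adjusted p = 1.49e-10). Urod (ENSMUSG00000028684, chr4:116989965-116994413, minus strand) was read throughout the embryo, at 54.4 and 48.6 CPM in other cells and 119 and 78.8 in erythroid cells. Its groups did not overlap either, but the fold was only 2.19 in replicate 2 and 1.62 in replicate 3, and the log2 fold change was 1.36 (SE 0.149, edgeR adjusted p = 1.08e-05). Without replicate 2, and with the other cells of replicate 1 added, the Urod value was 0.89. That fit has 1 erythroid sum and so no spread between erythroid embryos. Fech (ENSMUSG00000024588) lay between these, at 56.9 and 47.1 in erythroid cells and 16.3 and 14.5 in other cells, a 3.49-fold and 3.26-fold difference with no overlap. Its log2 fold change was 2.15 (SE 0.128, edgeR adjusted p = 8.56e-08).

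Both iron import genes were higher in erythroid cells, Slc25a37 by more than Tfrc. Slc25a37 (ENSMUSG00000034248, chr14:69241848-69285112, minus strand) was at 113 and 104 CPM in erythroid cells and at 12.5 and 11.7 in other cells, a close match between embryos. The ratio was 9.05 and 8.86, and the log2 fold change 3.54 (SE 0.105, edgeR adjusted p = 3.89e-10). Tfrc (ENSMUSG00000022797, chr16:32608920-32632794, plus strand) was at 92.9 and 84.0 in erythroid cells and at 39.7 and 42.0 in other cells, so it was plentiful in both. Its groups did not overlap, with ratios of 2.34 and 2.00 and a log2 fold change of 1.49 (SE 0.0983, edgeR adjusted p = 1.85e-07). Slc25a28, the paralog of Slc25a37 that also carries iron into mitochondria and is broadly expressed, had nearly equal levels of 24.0 and 23.0 in erythroid cells and 23.2 and 23.3 in other cells. Its log2 fold change of 0.39 (SE 0.123, edgeR adjusted p = 0.0170) became 0.02 (adjusted p = 0.890) with total UMIs as the scaling.

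Epor, the cytokine receptor gene, was at 87.4 CPM in erythroid cells of replicate 2 (842 UMIs, 81.6 to 93.5) and at 70.9 in replicate 3 (179 UMIs, 60.9 to 82.1). Other cells held 1.87 and 1.75, about the same in both embryos and far under the erythroid sums. The ratio was 46.7 and 40.5, and the log2 fold change 5.84 (SE 0.143, edgeR adjusted p = 1.42e-10). Car2 (ENSMUSG00000027562, chr3:14886273-14900770, plus strand) gave the most UMIs of the set, 5167 and 1416 in the erythroid cells of replicates 2 and 3. Its levels were 536 and 561 CPM there and 39.0 and 37.1 in other cells, ratios of 13.7 and 15.1 with no overlap. The log2 fold change was 4.22 (SE 0.0808, edgeR adjusted p = 3.41e-11).

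The 8 genes stood among 4032 genes called higher, with 5074 called lower. The median log2 fold change over all genes was -0.23. These values use edgeR's TMM scaling. With total UMIs as the only scaling, a setting chosen after seeing the data, every log2 value dropped by 0.37 at the median, 2149 genes were higher and 7180 lower, and higher genes made up 23.0% of all calls in place of 44.3%. All 8 genes were called there too, as in each alternative setting that kept both embryos. The settings without replicate 2 or without replicate 3 added replicate 1 to the other cells. They left 1 erythroid sum and no spread between erythroid embryos, so only their log2 fold changes are given.

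**Figure D1:**
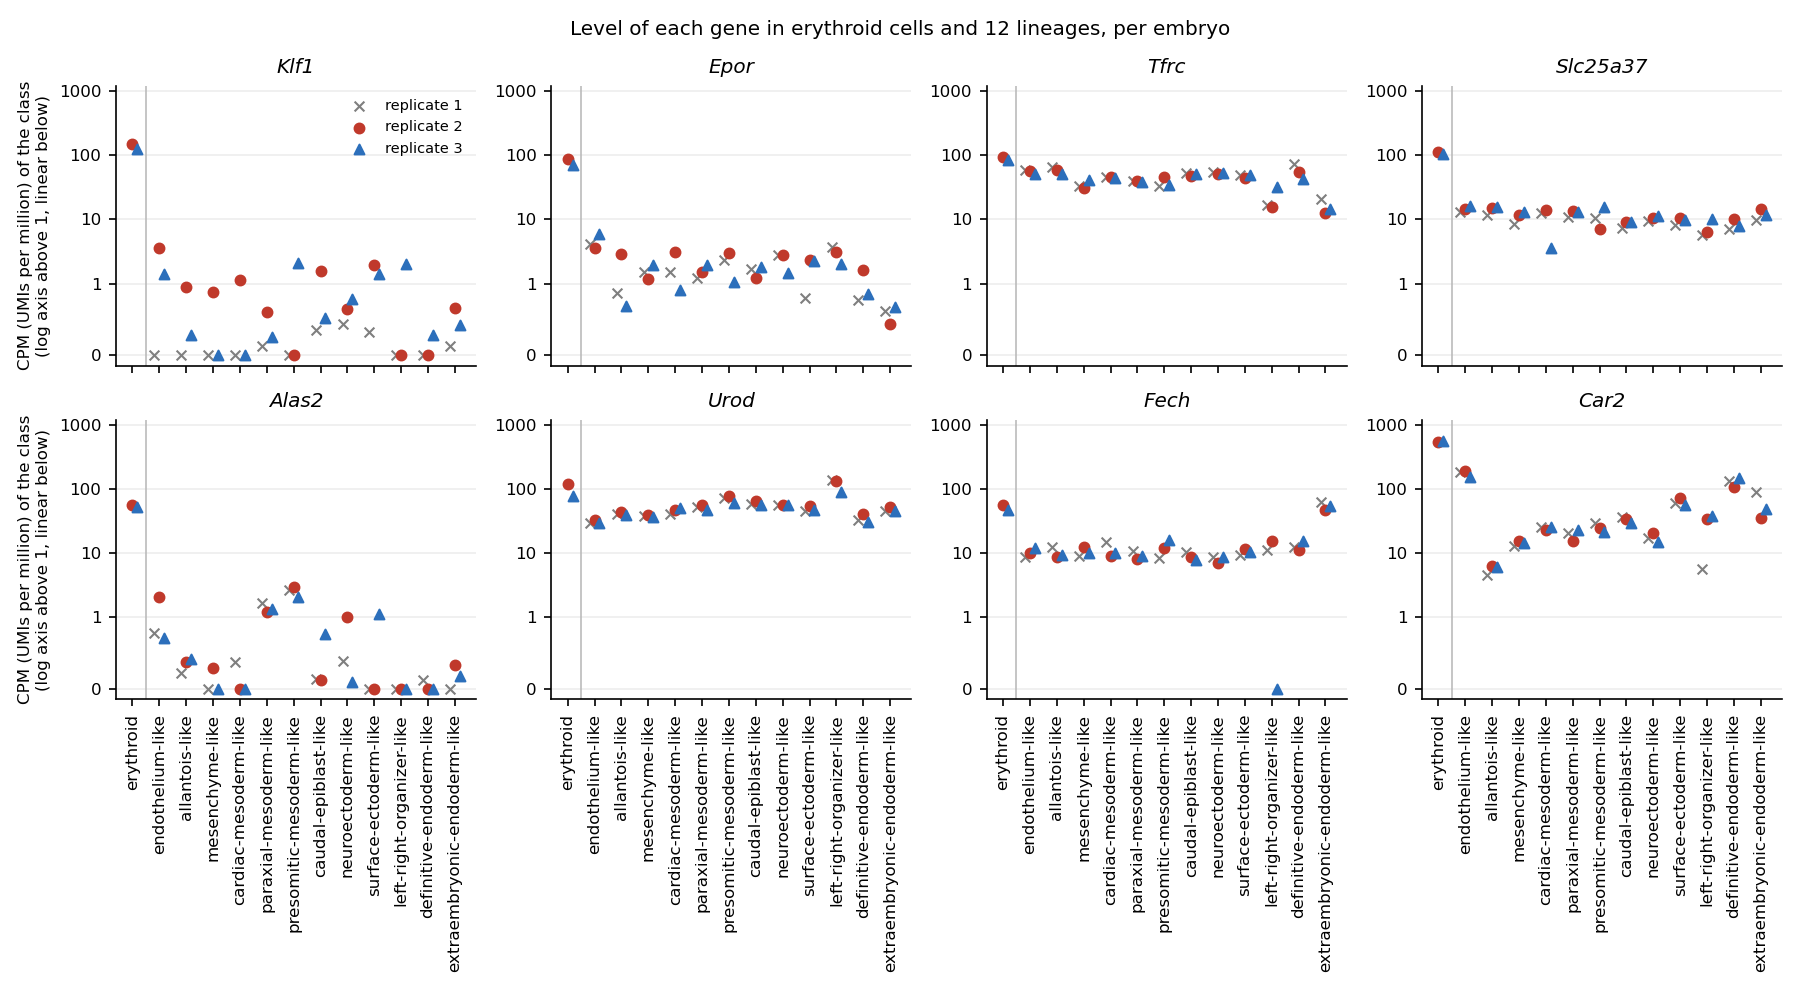
Level of each of the 8 genes in CPM (axis logarithmic above 1 and linear below) in erythroid cells and 12 lineages, 1 point per embryo, with replicate 1 as crosses and absent from the erythroid class. Klf1, Alas2 and Epor have erythroid points far above every other class, while Urod in left-right-organizer-like cells and Fech in extraembryonic-endoderm-like cells reach the erythroid level.

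Between the 2 embryos, erythroid cells of replicate 2 had the higher level for 7 of the 8 genes. The share of all genes that ran this way was not counted, so this is no trait of the set. The ratio of replicate 2 to replicate 3 was largest for Urod at 1.51, where the counting intervals of 112 to 126 and 68.3 to 90.6 did not overlap. It was 1.23 for Epor, 1.21 for Klf1 and for Fech, 1.11 for Tfrc, 1.09 for Slc25a37 and for Alas2, and 0.956 for Car2. The erythroid cells of replicate 2 also carried more globin RNA, 13480 against 6725 CPM of Hbb-bh1 and Hba-x, and its part in these ratios was not tested. With 1 sum per embryo the ratios have no replicate check.

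To see which lineages shared these genes, erythroid cells were compared with 12 lineages set by marker UMIs. Together with the primordial-germ-cell-like cells, too few for the fit, these lineages held 7890 cells of replicates 2 and 3. Of the 96 contrasts of a gene with a lineage, 94 were higher in erythroid cells by edgeR's test (adjusted p under 0.05) and the other 2 did not pass. The share of the 13188 genes tested that were higher in erythroid cells was 26.6% against extraembryonic-endoderm-like, 26.2% against definitive-endoderm-like, 22.3% against endothelium-like, 24.5% against surface-ectoderm-like, 27.3% against neuroectoderm-like and 26.5% against caudal-epiblast-like cells. It was 21% against presomitic-mesoderm-like, 26.3% against paraxial-mesoderm-like, 22.3% against cardiac-mesoderm-like, 24.5% against allantois-like, 25.5% against mesenchyme-like and 21.7% against left-right-organizer-like cells. Cells with Gata1 or high globin were left out of the lineages by the rule, so low levels there of genes that go with Gata1 are partly set by it.

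Both exceptions were haem enzymes. Fech was at 46.6 and 54.4 CPM in extraembryonic-endoderm-like cells, a nutrient-transporting epithelium around the embryo, so that the ranges of the 2 embryos overlapped with the erythroid 56.9 and 47.1. The log2 fold change was 0.14 (SE 0.165, edgeR adjusted p = 0.485), and -0.23 without replicate 2, where 1 erythroid sum was left. Replicate 1, which was not in the main fit, had Fech at 62.6 in these cells (506 UMIs, exact Poisson interval 57.3 to 68.3). In every other lineage of replicates 2 and 3 Fech was at 15.8 or less. Urod was at 132 and 89.9 in left-right-organizer-like cells, ciliated cells of the node, above the erythroid 119 and 78.8 of the same embryos. The fitted log2 fold change, on the TMM scale, had the opposite sign at 0.33 (SE 0.221, edgeR adjusted p = 0.228). This contrast moved with the settings, to -0.08 (adjusted p = 0.813) with total UMIs as the scaling and to -0.11 without replicate 2, where 1 erythroid sum was left. It moved to 0.61 (adjusted p = 0.0140) with the gate raised to 100 globin UMIs per 10000. The left-right-organizer-like cells numbered 29 and 33, and the 31 of replicate 1 had Urod at 139 (74 UMIs, 109 to 175).

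Endothelium-like cells, which share a mesodermal origin with blood, came second in level for 4 of the genes. Car2 was at 189 and 156 CPM there, below erythroid cells by a log2 fold change of 1.92 (SE 0.153, edgeR) and above definitive-endoderm-like cells at 108 and 149. Surface-ectoderm-like cells followed at 73.7 and 56.7, and allantois-like cells were lowest at 6.25 and 6.21. For Car2 none of these neighbours in the order overlapped between embryos. Epor was at 3.54 and 5.91 in endothelium-like cells, where replicate 1 gave 4.10, and Klf1 at 3.54 and 1.43, which overlapped the next class, and where replicate 1 gave 0 UMIs. Slc25a37 was at 14.8 and 16.0 there and its range overlapped that of allantois-like cells, at 15.1 and 15.4. Against the 12 lineages its log2 fold change kept between 3.07 and 4.07.

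Tfrc was present in every lineage at unequal levels. It was at 12.8 and 14.8 CPM in extraembryonic-endoderm-like cells, the lowest class, and at 58.3 and 51.4 in allantois-like cells, which had the highest mean of the 12 lineages. That mean was not apart from the next ones, since endothelium-like cells were at 56.7 and 50.7 and neuroectoderm-like cells at 50.8 and 52.5. The difference from erythroid cells ran from 0.99 on the log2 scale against endothelium-like cells to 2.77 against extraembryonic-endoderm-like cells. The 6 and 22 primordial-germ-cell-like cells had Tfrc at 86.9 and 81.8, which overlapped erythroid cells. Thus the class with the lowest Tfrc was the lineage whose Fech overlapped that of erythroid cells.

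Alas2 had 0 UMIs in 3 lineages, which gives a lower bound only. Set against a floor of 3 counts over both embryos, erythroid cells were at least 146-fold higher than definitive-endoderm-like, at least 68.8-fold higher than cardiac-mesoderm-like and at least 15.2-fold higher than left-right-organizer-like cells. Its second highest class was presomitic-mesoderm-like cells at 3.01 and 2.11 CPM, which rest on 3 and 2 UMIs. Replicate 1, which had no erythroid cell, gave 2.72 in that class (7 UMIs, exact Poisson interval 1.10 to 5.61) and 1.68 in paraxial-mesoderm-like cells (28 UMIs, 1.12 to 2.43), where replicates 2 and 3 had 1.20 and 1.36. Klf1 had 3 UMIs or fewer in 5 of the 12 lineages. In the 7 with more, its log2 fold change ran from 6.18 against endothelium-like to 8.62 against paraxial-mesoderm-like cells.

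Free RNA from lysed cells can put erythroid transcripts into other droplets, so other cells were set beside those of replicate 1, where no cell met the gate. Its other cells had 0 UMIs of Hbb-bh1 and Hba-x, against 5202 in replicate 2 and 999 in replicate 3. Klf1 in other cells was 0.23 CPM in replicate 1 (43 UMIs), below the 1.18 and 0.60 of replicates 2 and 3, and so ran in the order of the erythroid shares of 0%, 7.38% and 1.80%. Epor, at 1.57, 1.87 and 1.75 in replicates 1, 2 and 3, ran in the same order but differed less between embryos. Alas2, at 0.70, 0.70 and 0.52, did not follow that order. At the ratio to globin seen in erythroid cells, the globin UMIs of other cells would carry 38.7% and 19.8% of their Klf1 UMIs in replicates 2 and 3, 24.6% and 9.71% of Alas2, 14.2% and 3.89% of Epor, and at most 4.17% of the rest. The other cells of replicate 1 were at 53.1 for Urod, 12.6 for Fech, 48.9 for Tfrc, 9.61 for Slc25a37 and 41.8 for Car2. Replicates 2 and 3 were at 54.4 and 48.6 for Urod, 16.3 and 14.5 for Fech and 39.7 and 42.0 for Tfrc. They were at 12.5 and 11.7 for Slc25a37 and 39.0 and 37.1 for Car2. The ratio to globin is that of gated cells, which by rule hold more globin than Gata1-positive cells under the gate. The part of free RNA in any of these levels was not tested.

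Shares of cells with a UMI were compared after thinning each cell to 5000 UMIs, with 586 and 141 erythroid cells left in replicates 2 and 3. Median depth was similar, at 15397 and 17298 UMIs in erythroid and 14489 and 16261 in other cells. Car2 was read in 89.8% (exact binomial 95% interval 87.0 to 92.1) and 87.9% (81.4 to 92.8) of erythroid cells and in 15.6% and 15.3% of other cells. Klf1 was read in 54.3% (50.1 to 58.4) and 46.1% (37.7 to 54.7) against 0.62% and 0.25%. Both genes were far more frequent in erythroid cells at matched depth. Epor was read in 36.3% (32.4 to 40.4) and 27.0% (19.8 to 35.1) against 0.86% and 0.93%, and Alas2 in 24.1% (20.7 to 27.7) and 18.4% (12.4 to 25.8) against 0.44% and 0.30%. Urod was read in 46.4% (42.3 to 50.5) and 36.9% (28.9 to 45.4), but also in 23.5% and 21.7% of other cells, and Tfrc in 37.5% (33.6 to 41.6) and 39.7% (31.6 to 48.3) against 18.0% and 18.5%. Slc25a37 was read in 41.0% (36.9 to 45.1) and 42.6% (34.3 to 51.2) against 5.98% and 5.70%, and Fech in 27.6% (24.1 to 31.5) and 24.8% (17.9 to 32.8) against 8.05% and 7.46%. Without thinning the shares were higher, at 88.8% and 85.8% for Klf1, 56.0% and 53.2% for Alas2, 83.0% and 75.2% for Urod, 72.2% and 69.5% for Epor and 99.7% and 100% for Car2.

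**Figure D2:**
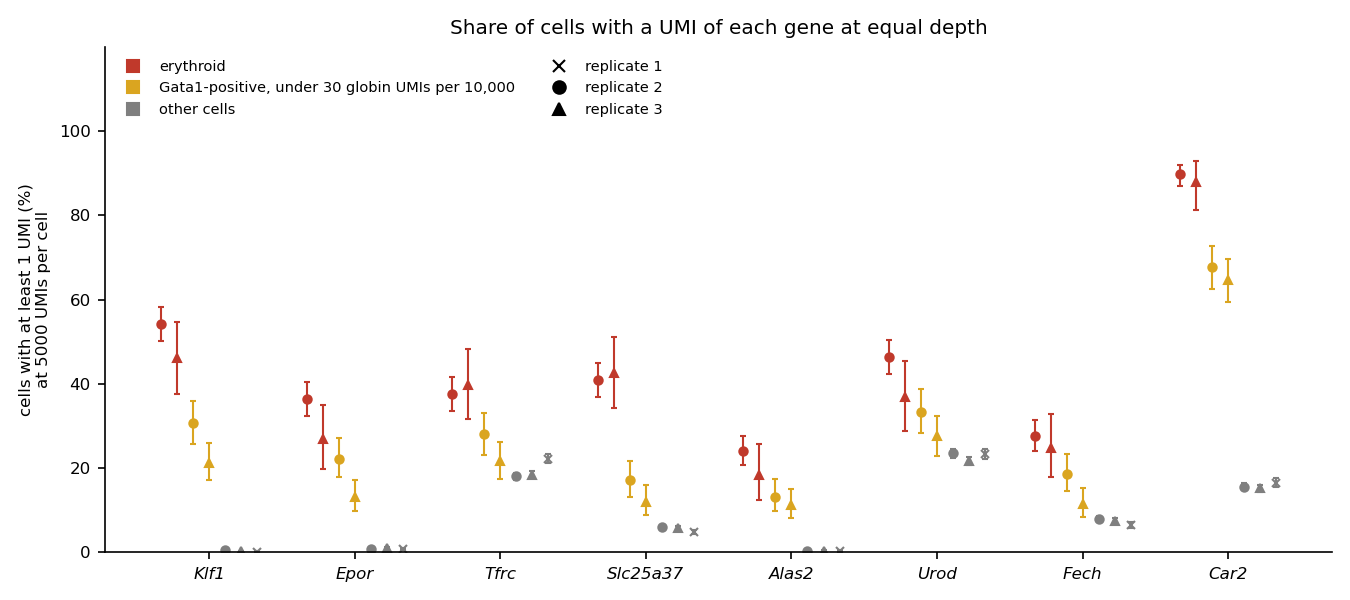
Percent of cells with at least 1 UMI of each gene after thinning to 5000 UMIs per cell, by embryo, in erythroid cells, Gata1-positive cells under the globin threshold and other cells, with exact binomial 95% intervals. For Klf1 the erythroid shares are 54.3% and 46.1%, those of Gata1-positive cells 30.7% and 21.3%, and those of other cells under 1%.

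The genes were read together in the same cells. A median of 6 of the 8 genes had a UMI in an erythroid cell of either embryo, and 71.0% and 67.4% of erythroid cells had at least 6, against a median of 2 and shares of 0.36% and 0.26% in other cells. All 8 were read in 88 of 587 and 18 of 141 erythroid cells, and in 1 of 6953 and 0 of 7336 other cells. At 5000 UMIs per cell the median was 4 and 3 genes in erythroid cells and 1 in other cells. At that depth 8.02% and 7.80% of erythroid cells had at least 6, against 0.0145% and 0% of other cells. Whether the genes were read together more often than their separate shares imply was not tested.

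The gate itself cuts through a continuous range of globin RNA. Just outside it, the Gata1-positive cells with 15 to 30 globin UMIs per 10000 (93 and 57 cells) had Klf1 at 121 and 118 CPM. Just inside, those with 30 to 60 (138 and 78 cells) had 139 and 115, so the threshold separated no step in Klf1. Alas2 was 35.8 and 29.1 outside and 36.8 and 42.0 inside, Slc25a37 57.9 and 68.6 outside and 67.7 and 82.5 inside, Epor 80.1 and 44.2 outside and 80.7 and 70.2 inside, and Car2 497 and 512 outside and 477 and 551 inside. Urod was 82.0 and 79.9 outside and 110 and 68.0 inside, Fech 49.5 and 45.1 and then 51.0 and 39.1, and Tfrc 71.6 and 74.3 and then 85.7 and 76.7.

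The wider range of globin RNA was read in bins with limits chosen after seeing the data. Gata1-positive cells with under 1 globin UMI per 10000 (110 and 190 cells) had Klf1 at 6.76 and 17.2 CPM, and those with 1 to 15 (129 and 109 cells) already had 95.6 and 72.7. Epor went from 8.18 and 15.3 to 72.5 and 43.1 over the same step, and Car2 from 104 and 149 to 440 and 369. In the cells with at least 120 (257 and 13 cells) Klf1 was at 166 and 146, Epor at 90.2 and 60.1 and Car2 at 564 and 601. Slc25a37 was at 18.5 and 13.6 with under 1 globin UMI, at 48.9 and 37.9 with 1 to 15 and at 153 and 133 with at least 120. Alas2 was at 5.69 and 5.86, then 32.0 and 30.5, and then 74.9 and 64.4, and in replicate 3 it had already reached 64.8 with 60 to 120. These are levels in bins of cells within 1 sum per embryo and were not tested.

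**Figure D3:**
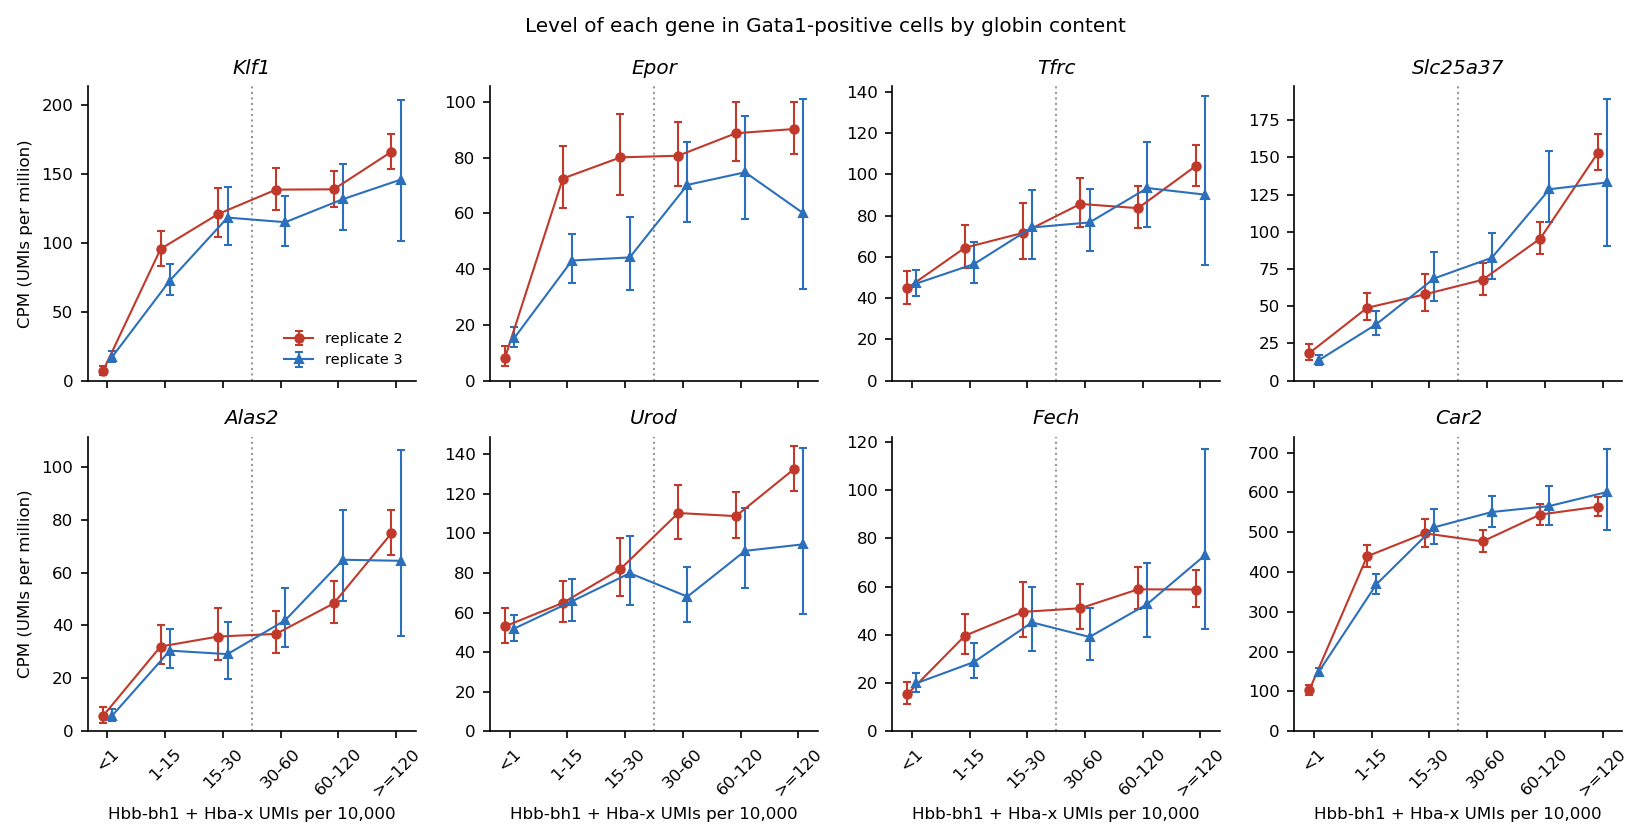
Level of each gene in CPM in Gata1-positive cells binned by Hbb-bh1 plus Hba-x UMIs per 10000, 1 line per embryo, with exact Poisson 95% intervals as bars and the gate as a dotted line. Klf1, Epor and Car2 gain most between the 2 lowest bins, while Slc25a37 reaches 153 and 133 in the highest bin from 48.9 and 37.9 at 1 to 15.

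Within the gate, the cells with the lowest and the highest globin were compared in each embryo (196 against 196 cells in replicate 2 and 47 against 47 in replicate 3, the middle cells left out), with all globin genes taken out of the table. Slc25a37 went from 73.3 to 166 CPM in replicate 2 and from 90.0 to 131 in replicate 3. Both high-globin sums lay above both low-globin sums, with a log2 fold change of 1.04 (SE 0.151, edgeR adjusted p = 8.05e-04). Alas2 went from 40.3 to 78.9 and from 43.2 to 62.3, again with no overlap, with a log2 fold change of 0.92 (SE 0.176, edgeR adjusted p = 0.00891). The sums of Klf1, Tfrc, Car2 and Fech did not overlap either, and these genes were not called in this fit. Slc25a37 and Alas2 were the 2 of the 8 genes called higher, beside 0.252% of the 7944 genes tested (20 higher and 47 lower). With the embryo as a block, which the design supports since both sums come from 1 animal, 5 of the 8 genes were called, adding Klf1 at 0.40 (adjusted p = 0.0298), Tfrc at 0.50 (adjusted p = 0.0227) and Urod at 0.43 (adjusted p = 0.0374), with 89 genes higher and 118 lower. DESeq2 called Slc25a37 (adjusted p = 0.0315) and not Alas2 (0.87, adjusted p = 0.918).

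Replicate 2 carried the larger part of both differences. In replicate 3 alone the log2 difference was 0.59 for Slc25a37 and 0.58 for Alas2, and in replicate 2 alone 1.31 and 1.10. The groups were not alike in globin between embryos. On the scale of the gate, median globin was 50.5 in low-globin and 224 in high-globin cells of replicate 2. In replicate 3 these medians were 36.3 and 86.2. High-globin cells of replicate 3 began at 70.4, under the 71.9 at which low-globin cells of replicate 2 ended. The part of this in the smaller values of replicate 3 was not tested. The other genes did not pass the test without the block. Klf1 was at 136 and 113 in the low-globin cells and at 167 and 147 in the high-globin cells, a log2 difference of 0.40 (edgeR adjusted p = 0.210), and Tfrc had 0.48 (adjusted p = 0.174). Epor had a log2 difference of 0.07 (SE 0.161, edgeR adjusted p = 0.943), with 85.5 and 85.1 in the low-globin and 93.5 and 65.9 in the high-globin cells, so the embryos differed in sign. The depth of the 2 groups was close, with medians of 14468 and 16021 UMIs in low-globin and 16079 and 18368 in high-globin cells. Cells that also met another lineage's marker rule were more frequent in the low-globin group, at 21 of 196 and 5 of 47 against 3 of 196 and 1 of 47. Without all such cells the values were 1.04 for Slc25a37 (adjusted p = 2.11e-04) and 0.88 for Alas2 (adjusted p = 0.00977).

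Beside the 3 haem enzymes of the set, the other enzymes of the pathway that were examined were higher in erythroid cells with 1 exception. Of 8 haem synthesis enzymes, 7 were higher and 1 lower by edgeR's test, beside 25.9% of all genes tested that were higher. Their median log2 fold change was 2.47 against -0.23 over all genes. The counts were the same with total UMIs as the scaling, where 2149 of 15540 genes were higher. Cpox, which makes protoporphyrinogen, was at 455 and 428 CPM against 64.0 and 55.5 in other cells (log2 fold change 3.26), followed by Uros at 2.98, Ppox at 2.60 and Alad at 2.33. Alas1, the housekeeping form of the first enzyme, was the lower one, at 5.19 and 6.34 against 14.4 and 11.3 (log2 fold change -0.86, edgeR adjusted p = 0.00563). Both forms of the first enzyme thus differed in opposite directions between erythroid and other cells. Between low- and high-globin erythroid cells, Alas2 and Alad (log2 difference 0.85, edgeR adjusted p = 0.0101) were the 2 of these 8 enzymes that passed. Over all genes tested there, 0.252% were higher. DESeq2 called neither, and with the embryo as a block Cpox (0.41, adjusted p = 0.00329) and Urod passed as well, beside 89 of 7944 genes higher.

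The iron uptake, storage and haem transport list was mixed. Of its 25 genes 16 were higher, 4 lower and 5 not called, with a median of 0.62, beside 25.9% of all genes tested that were higher. With total UMIs as the scaling 12 were higher and 5 lower, beside 2149 of 15540 genes higher. Blvrb, a biliverdin reductase, led at 4.32, then Abcb10, a mitochondrial transporter, at 3.57 and Slc25a37 at 3.54. Trf, which encodes the iron carrier transferrin, was lowest at -2.53. Hfe had a log2 fold change of -2.33 but rested on few UMIs (edgeR adjusted p = 0.103). Of 12 genes of iron-sulphur cluster assembly, 11 were higher, beside the same 25.9%, led by Glrx5 at 1.88, Nfs1 at 1.35 and Lyrm4 at 1.30. With total UMIs as the scaling 9 of the 12 were higher, beside the same 2149 of 15540 genes. The lowest values, Iscu at 0.29 (adjusted p = 0.0211) and Isca2 at 0.29 (adjusted p = 0.0515), both became -0.08 there. With the embryo as a block Isca2 passed at 0.27 (adjusted p = 0.0290).

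**Figure D4:**
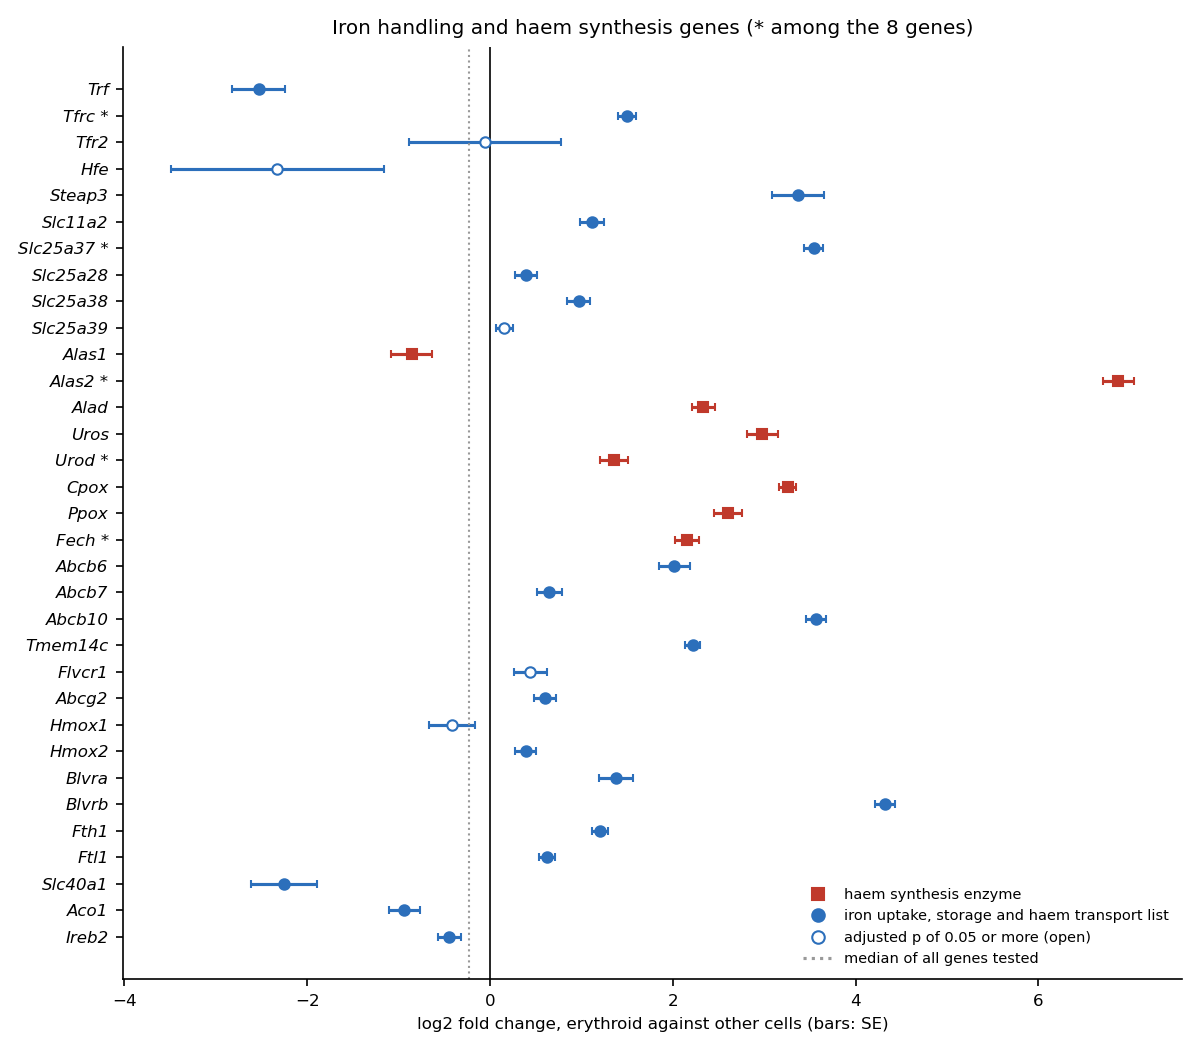
Log2 fold change of erythroid against other cells (edgeR, TMM scaling, bars SE) for 8 haem synthesis enzymes (squares) and the 25 genes of the iron and haem transport list (circles), with open symbols for an adjusted p of 0.05 or more and a dotted line at the median of all genes, -0.23. Alas2 stands at 6.87 and Alas1 at -0.86, while Slc25a37 stands at 3.54 and Slc25a28 at 0.39, a value that total UMI scaling brings to 0.02.

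The lists around Klf1, Epor and Car2 were higher to unequal extents, beside the 25.9% of all genes tested that were higher in erythroid than in other cells. Of 16 erythroid transcription factors and cofactors, 13 were higher and 2 lower (median 3.68), led by Klf1, Nfe2 at 7.30 and Gfi1b at 7.10, and Bcl11a at -2.98, on few UMIs (edgeR adjusted p = 0.0160), and Klf3 at -0.47 (adjusted p = 0.0189) were the lower ones. Of the 13 genes of erythropoietin receptor signalling, 8 were higher and 3 lower (median 0.81). Epor led, then the signal transducers Stat5a at 2.97 and Stat5b at 2.56, and the feedback inhibitors Socs3 at -2.64 and Socs2 at -1.62 were lowest. With total UMIs as the scaling 7 were higher and 4 lower, beside 2149 of 15540 genes higher. Against endothelium-like cells, where 22.3% of all genes were higher and their median was -0.05, the erythropoietin receptor list had 6 higher and 5 lower (median -0.32) and the transcription factors 10 higher and 3 lower (median 0.77). Of 28 genes of the red cell membrane, cytoskeleton and enzymes that were tested, 25 were higher and 1 lower than in other cells (median 4.40), and against endothelium-like cells 21 of 24 were higher (median 3.60). Trim10 was at 8.33, Rhag at 8.21 and Ermap at 8.05. Rhag had few UMIs and 0 in the other cells of replicate 2, so that its fitted value is no bound. Cat was lower at -0.62 (edgeR adjusted p = 0.00176) and Pklr had -0.80 (adjusted p = 0.309). Slc4a1, which encodes the band 3 anion exchanger, had 5 and 1 UMIs in erythroid cells, and Trim58 had 3 and 1, too few to test.

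Across the 26 sums of 13 classes in 2 embryos, genes whose log2 level was among the most like that of each of the 8 are given here, chosen from 10849 genes with at least 10 CPM in some class. These correlations are descriptive, since the sums share libraries and a single class carries much of the range. Klf1 was most like Csf2rb (Pearson r = 0.957), Epb42 (0.949) and Nfe2 (0.947). Epor was most like Epb42 (0.945), Hbb-y (0.937) and Nfe2 (0.932), and among the genes most like Alas2 were Csf2rb (0.946), Gja6 (0.945) and Epb42 (0.933). Among those most like Slc25a37 were Klf1 (0.914), Csf2rb (0.913) and Slc38a5 (0.902). The genes named for the other 4 were different ones. Urod was most like Idh3g (0.906), Ndufs3 (0.852) and Sfxn2 (0.835), and Fech most like Tatdn2 (0.909), Pepd (0.901) and Pop5 (0.877). Tfrc was most like Slc16a3 (0.891), Btf3 (0.871) and Rpl29 (0.860), and Car2 most like Frrs1 (0.920), Cmas (0.840) and Mbnl1 (0.818). Among the 8 genes themselves, r was 0.901 between Klf1 and Alas2 and 0.910 between Klf1 and Epor, but 0.0567 between Urod and Fech and -0.108 between Tfrc and Fech.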

How the data were processed

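Single-cell 3′ RNA was measured in 3 embryos with 1 library each (10x Genomics, v3 chemistry). Per the labels, the authors aligned reads with Cell Ranger 3.1.0 to mm10 and deposited raw counts of UMIs per feature and cell barcode, without normalization. Cells were kept with at least 1500 genes, at most 8500 (replicates 1 and 3) or 7500 (replicate 2) genes, at most 10% mitochondrial UMIs (limits taken from the study) and at least 0.5%. Of 23533 barcodes 21595 were kept. Doublets were not removed. Scrublet in scanpy 1.11.5, run at an expected rate of 6%, called 1, 3 and 1 cells by its own threshold and so had not worked, and removal of the top 6% of scores was an alternative.

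A lineage needed at least 3 of its 6 marker genes and 2 more than any other lineage, and its name ends in "-like". UMIs were summed per embryo and class, so that the embryo, not the cell, was the replicate. Sums of replicates 2 and 3 were tested with edgeR 4.0.16 (R 4.3.3, glmQLFit, TMM, filterByExpr, Benjamini-Hochberg over all genes tested, threshold 0.05), with DESeq2 1.42.0 as an alternative. The SE beside an edgeR value is the absolute log2 fold change over the square root of the test's F statistic. It is not a spread measured between embryos. CPM are UMIs per 1000000 UMIs of the class. Low-globin and high-globin cells are the outer parts of the erythroid cells of an embryo after a split into 3 equal parts by globin. Sums of 1 embryo come from the same animal and are paired. Across genes their deviations from class means correlated at 0.240 (erythroid and other cells) and 0.128 (globin groups). The test was checked on simulated data. The simulated sums were unpaired and had 1 fixed spread (dispersion), above the fitted common values of 0.01295 (erythroid against other cells) and 0.006003 (globin groups). The rates below therefore hold for that setting and not exactly for these data. Of genes given a log2 change of 1, it recovered 47.5% (erythroid against other cells) and 46.4% (globin groups). For a change of 2 it recovered 79.4% and 93.5%, and 4.6% and 2.9% of the calls were false. A gene that did not pass can therefore still differ.

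The 8 genes, marker lists and pathway lists were chosen with earlier results of these data known. Named beside the 8 genes were the haem enzymes, Slc25a28, the 3 highest and 2 lowest genes of each other list and the 3 genes of highest correlation, apart from some genes that are not reported here and were left out of the lists, and Alad in the globin comparison was named as a haem enzyme. Slc4a1 and Trim58 were named after their values were seen. Gene positions are from GENCODE on GRCm38 (1-based). Upstream sequences are from RefSeq, with entries for Klf1, Alas2, Urod, Tfrc and Epor. Alas2 and Slc25a37 overlap genes on the opposite strand, and Slc25a37 also a same-strand gene model that is not among the features counted.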

Additional observations from a re-analysis of the deposited data

Results flagged for a closer look

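No cell of replicate 1 met the gate, and this embryo entered fits only in alternative settings, on the side set against erythroid cells. Yet 30 of its cells had a Gata1 UMI. In these 30 cells Klf1 was at 5.309 counts per 1000000 UMIs (CPM) (7 UMIs, exact Poisson 95% interval 2.13 to 10.9), Epor at 4.551 (6 UMIs, 1.67 to 9.90) and Car2 at 63.71 (84 UMIs, 50.8 to 78.9). The other cells of that embryo were at 0.23, 1.57 and 41.8. Only genes whose interval lay above the level of those other cells are given, so the direction was set by selection. The remaining genes of the set are not given. Alas2, which was among those, was at 1.52 (2 UMIs, 0.184 to 5.48) in the 30 cells against 0.70 in the other cells. Endothelial markers summed to 364 CPM in the 30 cells against 161 in the other cells, and their part in these levels was not tested. The 1 cell of replicate 1 with both Gata1 and globin UMIs had 18 UMIs of Car2. It is among the 30 cells, and its 18 UMIs are part of the 84. Whether Car2 would still be given without that cell was not tested.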

How the results depend on the processing

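All 8 genes stayed higher in erythroid than in other cells in the 15 alternatives, and past the threshold in those that kept both embryos. Log2 fold changes over the 15 were 5.38 to 8.51 for Klf1, 5.32 to 7.20 for Alas2, 0.89 to 1.61 for Urod, 1.78 to 2.35 for Fech, 1.13 to 1.59 for Tfrc, 3.17 to 3.87 for Slc25a37, 4.71 to 6.04 for Epor and 3.73 to 4.25 for Car2. The replicate block (pairing by embryo) changed none of those calls and none of the 96 against lineages. Counts over all genes moved to 2149 higher with total UMIs as the scaling, and to 1715 to 2302 higher and 2819 to 3301 lower without replicate 2 or 3. For high- against low-globin cells, DESeq2 gave 8 higher and 6 lower genes, 1 of the 8 genes, and 0.87 for Alas2. No filter on low counts gave 45 higher and 91 lower, the replicate block 89 higher, 118 lower and 5 of the 8 genes (Klf1 0.40, Urod 0.43, Tfrc 0.50), total UMIs as the scaling 13 higher and Epor at -0.0225, removal of top doublet scores 16 lower, and a split at the median globin level 6 higher and 26 lower. Leaving out an embryo moved Klf1 to 0.42 to 0.43 and Fech to 0.21 to 0.93. The causes were not tested. Shares after thinning, as means of both embryos, were 50.2% for Klf1, 21.3% for Alas2, 41.6% for Urod, 26.2% for Fech, 38.6% for Tfrc, 41.8% for Slc25a37, 31.6% for Epor and 88.9% for Car2, lower by construction. Erythroid values rest on 2 embryos and 2 residual degrees of freedom, fewer with the block, and 141 cells set the depth of replicate 3.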

Other observations

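The cells with globin but no Gata1 UMI, which the gate leaves out, numbered 84 in replicate 2 and 11 in replicate 3. A median of 6 and 5 of the 8 genes had a UMI in them, as against 6 and 6 in erythroid cells and 2 and 2 in other cells. Gata1-positive cells under the globin threshold (332 and 356 cells) had a median of 5 and 4. Their Klf1 was at 64.3 and 46.1 CPM, Car2 at 312 and 258 and Alas2 at 21.9 and 15.9, between other and erythroid cells, and the endothelial markers summed to 297 and 277 CPM there.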
